A study of Mus musculus with 6 samples.

Results

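The 10 genes described here encode dynein arm assembly factors, the cytoplasmic proteins that fold and join the motor complexes of motile cilia before these are carried into the cilium. They were taken as a fixed list of gene names (Daw1, Zmynd10, Lrrc6, Dnaaf1, Dnaaf3, Dnaaf2, Pih1d2, Spag1, Ruvbl1 and Ruvbl2). The list was chosen with earlier results of these data known. All 10 genes had a probe set annotated to that gene alone, out of 19938 genes measured. Their levels were read on 6 Affymetrix whole-transcript arrays of the ependymal layer, the ciliated epithelium of the brain ventricles. All 6 arrays came from brains carrying FoxJ1-EGFP, from which the fluorescent domains were cut out by laser capture. One array each represented FoxJ1 null and Wildtype brains at postnatal days 1, 7 and 14, so each genotype had 3 arrays and each age had 2. RNA was amplified before labelling. The labels describe neither the null allele nor the reporter construct further, and do not give the number of animals behind each sample. The p-values therefore measure only the spread between these arrays.

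A motile cilium beats because outer and inner dynein arms slide the microtubule doublets of its axoneme. The arms are built in the cytoplasm: heat shock chaperones, PIH-domain cochaperones and the R2TP complex fold the heavy chains and join them to the other subunits, and dedicated factors such as Zmynd10 and Lrrc6 act along the way. Finished arms are then moved into the cilium with the help of adaptors such as Daw1. Loss of dedicated factors such as these can leave cilia without dynein arms and, in humans, cause the disease primary ciliary dyskinesia. Foxj1 is the forkhead transcription factor that switches on genes of motile cilia, in part together with RFX factors, which bind a palindromic sequence called the X-box.

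Promoter sequences are shown so that the members can be compared at their start sites, whether or not they differ between the genotypes. RefSeq windows of assembly GRCm38.p6, from 250 bases before to 50 bases after the start, were at hand for 7 of the 10 genes. The 2 arms of an X-box (GTTNCC and GGNAAC, each the reverse complement of the other, 0 to 3 bases apart) were searched with at most 1 mismatch over their 10 fixed letters. Both the letters and the limit were chosen after the windows had been read. Of the 7 windows 4 held such a pair, compared with 5.44% of 27025 windows, and with at most 2 mismatches the counts were 5 of 7 and 34.5%. A pair with 0 mismatches occurred in 0 of the 7 windows and in 0.821% of all windows. The 4 sites follow 5′ to 3′ on the strand of the gene, 30 bases each, with the arms in capitals.
Daw1 (chr1:83159748-83159777, plus strand): gtttgttaGTTTCCatGGCTACgaagcccc
Zmynd10 (chr9:107547296-107547325, plus strand): gctccctcGTTTCCatGGCGACgacgactc
Pih1d2 (chr9:50617082-50617111, plus strand): agcttgagGTTTCCaaGGGGACgtggggga
Dnaaf2 (chr12:69198425-69198454, minus strand): tcccaggcGTTACTatGGCAACaaagcacg
With the start base as 1 and the base before it as -1, the first arm began at position 2 in Daw1, 1 in Zmynd10, -17 in Dnaaf2 and -231 in Pih1d2. In Daw1, Zmynd10 and Dnaaf2 the arms lay around the same 2 bases. Among the other 3 windows the closest pair had 2 mismatches in Ruvbl1 and 3 in Dnaaf3 and Ruvbl2. Lrrc6, Dnaaf1 and Spag1 had no window. Of the genes with a pair, Daw1, Zmynd10 and Pih1d2 passed the genotype test described below and Dnaaf2 did not. Dnaaf3 passed it without a pair.

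A forkhead word was also searched on both strands, NNAAANA with A or G first, C or T second and C or T sixth, which stands for 8 words of 7 letters. It occurred in 4 of the 7 windows (Daw1, Zmynd10, Pih1d2 and Ruvbl1) and in 27.5% of all windows. The word began at position -8 in Daw1, -249 in Zmynd10, -123 in Pih1d2 and -122 in Ruvbl1. The 250 bases upstream of Daw1 (chr1:83159505-83159754, plus strand) are given with the word in capitals, next to the X-box arms shown above.
Daw1 upstream: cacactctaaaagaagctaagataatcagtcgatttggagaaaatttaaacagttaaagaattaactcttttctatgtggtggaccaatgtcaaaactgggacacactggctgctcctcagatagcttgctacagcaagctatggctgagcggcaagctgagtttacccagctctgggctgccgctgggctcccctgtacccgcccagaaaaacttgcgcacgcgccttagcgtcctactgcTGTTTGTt
These matches are descriptions of the letters. Whether a factor binds there was not tested.

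Median log2 levels of the arrays lay between 7.72 and 7.81 over 35557 probe sets. The targeted gene Foxj1 read -0.63 ± 0.25 (SD over the 3 ages) in FoxJ1 null against Wildtype and did not pass the test (adjusted p = 0.0573); the sources used here do not give the part of the gene its probe set covers. The series title names male mice, yet the FoxJ1 null array of day 7 and the Wildtype array of day 1 had Xist, the transcript of the inactive X chromosome, at 12.35 and 12.40, against 5.37 to 5.83 on the other 4 arrays. On the same 2 arrays the Y-linked gene Eif2s3y read 4.61 and 4.53, against 10.33 to 10.72 on the other 4. The high-Xist array was Wildtype at day 1 and FoxJ1 null at day 7. Only the day 14 pair was alike in these genes. In the single differences of days 1 and 7, genotype and this contrast cannot be told apart. Results that change without the 2 high-Xist arrays are given beside the genes.

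On the FoxJ1 null arrays 5 of the 10 assembly factor genes were lower and 5 did not pass. Daw1, Zmynd10, Lrrc6, Pih1d2 and Dnaaf3 had mean levels from 2.50-fold to 1.48-fold below Wildtype, and Dnaaf1, Spag1, Ruvbl1, Ruvbl2 and Dnaaf2 had differences that missed the threshold. Over all genes 0.667% were called lower (133 of 19938) and 1 was called higher. Because the 10 genes were chosen with earlier results of these data known, this contrast is a description and no test of the list. The test was limma with genotype and the 3 ages as factors, a call is a Benjamini-Hochberg adjusted p under 0.05 over all genes, and each difference is on the log2 scale, the FoxJ1 null level less the Wildtype level. The median difference of the 10 genes was -0.49, against -0.01 over all genes, with -0.64 on the first day, -0.43 at day 7 and -0.43 at day 14. In tissue cut out whole, fewer ciliated cells and less RNA per cell cannot be told apart.

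**Figure D1:**
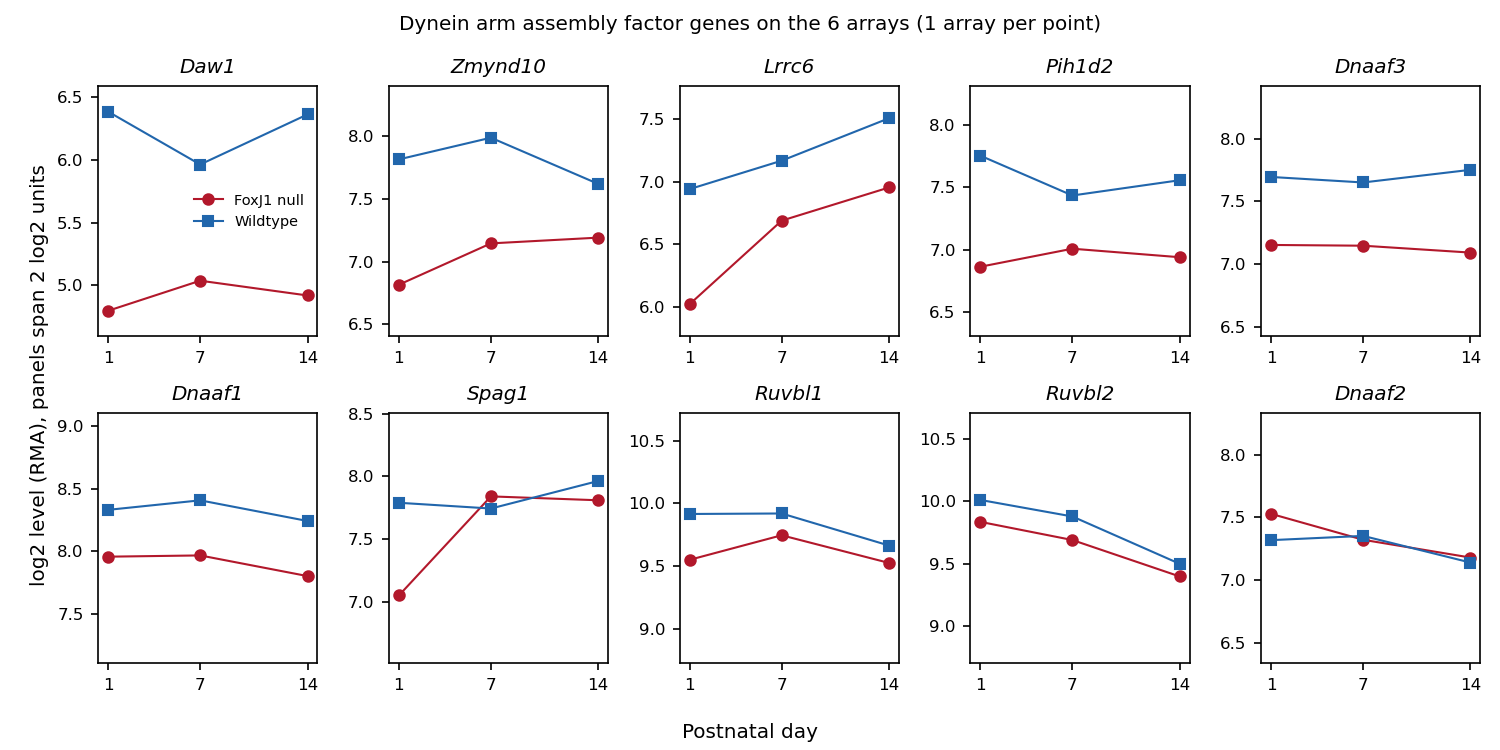
Log2 RMA level (vertical axis, 2 log2 units in each panel) against postnatal day (horizontal axis) for the 10 genes, 1 array per point, FoxJ1 null as circles and Wildtype as squares. Daw1, Zmynd10, Pih1d2, Dnaaf3 and Dnaaf1 have all 3 FoxJ1 null arrays below all 3 Wildtype arrays, while the courses of Spag1 and Dnaaf2 cross.

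Daw1 encodes a WD-repeat protein that, in the alga Chlamydomonas, links outer dynein arms to the transport machinery entering the cilium. Its log2 level was 4.80, 5.04 and 4.92 on the FoxJ1 null arrays of days 1, 7 and 14, against 6.39, 5.96 and 6.36 on the Wildtype arrays. The groups were far apart, with the null arrays close together. These levels are low for the arrays, whose medians lay between 7.72 and 7.81, and Daw1 lies in the lowest tertile of genes. Whether low signal narrows its spread or its difference was not tested. Daw1 was 2.50-fold lower (95% interval 2.03 to 3.08; log2 difference -1.32 ± 0.35, SD over ages, adjusted p = 0.00146). It had the greatest difference of the 10 genes at each of the 3 ages and stood at place 30 of 19938 when all genes were ordered from the most negative difference.

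Zmynd10 carries a MYND-type zinc finger and works with Lrrc6 in the folding of dynein heavy chains. It read 6.82, 7.15 and 7.19 on the FoxJ1 null arrays of days 1, 7 and 14, against 7.82, 7.99 and 7.62 on the Wildtype arrays. The groups did not overlap, and the gap was narrowest at day 14, with a difference of -0.43 against -0.84 at day 7. The mean was 1.69-fold lower (interval 1.39 to 2.06; -0.76 ± 0.30, adjusted p = 0.0276). Without the day 7 arrays the gene was no longer called (-0.72, adjusted p = 0.103), nor when both high-Xist arrays were dropped, a fit that takes age as linear (-0.77, adjusted p = 0.326).

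Lrrc6, a leucine-rich repeat protein and binding partner of Zmynd10, differed between the genotypes and also with age. Its levels were 6.02, 6.69 and 6.95 on the FoxJ1 null arrays of days 1, 7 and 14, against 6.94, 7.17 and 7.51 on the Wildtype arrays. Since both courses climbed, the oldest null array just reached the youngest Wildtype array and the groups overlapped, although null was lower at each age. At matched ages the gene was 1.57-fold lower (interval 1.31 to 1.88; -0.65 ± 0.24, adjusted p = 0.0432). The call ended without the day 1 arrays (-0.52, adjusted p = 0.103), without the day 7 arrays (-0.74, adjusted p = 0.0513) and without the 2 high-Xist arrays (-0.65, adjusted p = 0.204).

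Dnaaf3 and Dnaaf1 encode cytoplasmic factors needed for the assembly of both outer and inner arms. Dnaaf3 read 7.15, 7.15 and 7.09 on the FoxJ1 null arrays, against 7.70, 7.65 and 7.75 on the Wildtype arrays, in order of age. Each genotype was nearly level over the ages, and the groups were well apart. The gene was 1.48-fold lower (interval 1.27 to 1.74; -0.57 ± 0.08, adjusted p = 0.0409), a call that ended when any one age was left out (adjusted p = 0.0515 to 0.157) and without the 2 high-Xist arrays (-0.58, adjusted p = 0.276).

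Dnaaf1 showed a smaller difference of the same steadiness. It read 7.96, 7.97 and 7.80 on the FoxJ1 null arrays of days 1, 7 and 14, against 8.33, 8.41 and 8.24 on the Wildtype arrays. The null arrays all lay below the Wildtype arrays, with differences between -0.44 and -0.37 at the 3 ages. The mean of -0.42 ± 0.04, 1.34-fold (interval 1.15 to 1.56), had an unadjusted p of 0.00193 and did not pass over all genes (adjusted p = 0.176), nor under any of 14 alternative settings. 

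The list holds 2 PIH-domain proteins, cochaperones of Hsp90 and Hsp70, of which Pih1d2 was lower and Dnaaf2 did not pass. Pih1d2 read 6.86, 7.01 and 6.94 on the FoxJ1 null arrays, against 7.75, 7.43 and 7.56 on the Wildtype arrays, in order of age. All null arrays were below all Wildtype arrays, and the gene was 1.56-fold lower (interval 1.30 to 1.87; -0.64 ± 0.23, adjusted p = 0.045). Its call ended without the day 1 arrays (-0.52, adjusted p = 0.108) and without the 2 high-Xist arrays (-0.57, adjusted p = 0.276).

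Dnaaf2, the PIH protein known as kintoun, read 7.53, 7.32 and 7.18 on the FoxJ1 null arrays of days 1, 7 and 14, against 7.32, 7.35 and 7.14 on the Wildtype arrays. The groups overlapped and the mean difference was 0.07 ± 0.12 (adjusted p = 1.00), with a 95% interval from -0.16 to 0.31. Besides its own probe set, 2 further probe sets were annotated to Dnaaf2 together with the ribosomal protein gene Rpl36al and were not used.

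The remaining genes belong to R2TP-like machinery, and none of them passed. Spag1, a tetratricopeptide repeat protein that works with this machinery in dynein assembly, read 7.05, 7.84 and 7.81 on the FoxJ1 null arrays and 7.79, 7.74 and 7.96 on the Wildtype arrays, in order of age. The day 1 null array was low by itself, the other 5 arrays spanned 0.22, and the mean was -0.27 ± 0.43 (adjusted p = 0.987), or -0.03 without the day 1 arrays.

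Ruvbl1 and Ruvbl2 are the ATPases that form the ring of R2TP and also serve chromatin remodelling complexes, so most cells make them. Ruvbl1 read 9.55, 9.75 and 9.53 on the FoxJ1 null arrays and 9.92, 9.92 and 9.66 on the Wildtype arrays. Ruvbl2 read 9.84, 9.69 and 9.40 on the FoxJ1 null arrays and 10.01, 9.88 and 9.50 on the Wildtype arrays. Both were below Wildtype at each age, by -0.23 ± 0.12 (interval -0.46 to 0.01, adjusted p = 0.866) and -0.16 ± 0.05 (interval -0.38 to 0.07, adjusted p = 1.00), and the groups overlapped.

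**Figure D2:**
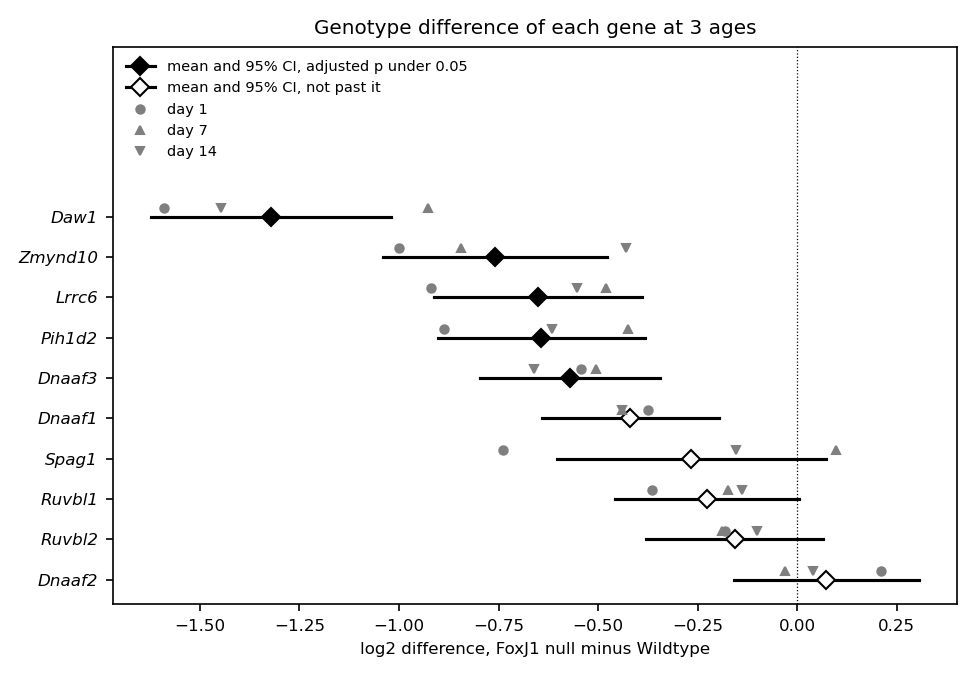
Log2 difference, FoxJ1 null minus Wildtype (horizontal axis), for each gene (vertical axis). Diamonds with bars are limma means with 95% confidence intervals, filled where the adjusted p was under 0.05, and grey marks are the single ages. Means run from -1.32 for Daw1 to 0.07 for Dnaaf2.

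All 3 FoxJ1 null arrays lay below all 3 Wildtype arrays for 5 of the 10 genes (Daw1, Zmynd10, Dnaaf3, Pih1d2 and Dnaaf1), against 4.39% of all genes (876 of 19938). This set and the called set share 4 genes, Lrrc6 being called with overlap and Dnaaf1 separated but not called. The lowest of the 6 values fell on the day 1 null array for 5 genes (Zmynd10, Lrrc6, Daw1, Pih1d2 and Spag1), and for 19% of all genes. It fell on the day 14 null array for 4 genes (18% of all genes) and on the day 14 Wildtype array for Dnaaf2.

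Partner genes were grouped to place the 10 genes along the assembly route. These groups too were chosen with earlier results of these data known, so contrasts of called counts between them are descriptions. Of 8 other dynein assembly factors none was called, and 8 of 8 had a negative difference (median -0.16). Beside this and the later counts of negative differences stands the number over all genes, 10928 of 19938. Ttc12, a factor for inner arms, stood apart at -0.67 ± 0.41 (adjusted p = 0.123), and Cfap298 (-0.23 ± 0.09), Dnaaf4 (-0.22 ± 0.03) and the R2TP-associated Wdr92 (-0.19 ± 0.15) followed. Among 13 R2TP and prefoldin-like partners none was called, and the median was -0.03. Tti1 (-0.31 ± 0.32), Uxt (-0.17 ± 0.08), the PIH protein of canonical R2TP Pih1d1 (-0.12 ± 0.10) and the scaffold Rpap3 (0.11 ± 0.17) were farthest from 0.

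Of 14 Hsp90 and Hsp70 chaperones and cochaperones none was called, and the median was -0.17. The constitutive Hsp70 gene Hspa8 read -0.80 ± 0.57 (adjusted p = 0.147), with values of -0.14, -1.22 and -1.04 at days 1, 7 and 14. The Hsp90 gene Hsp90aa1 read -0.54 ± 0.32 (adjusted p = 0.192). Stub1 (-0.23 ± 0.11) and Fkbp4 (-0.21 ± 0.11) came next. Among 24 partners of Ruvbl1 and Ruvbl2 in chromatin complexes none was called, and the median was 0.04.

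The dynein subunits are the proteins that the assembly factors handle. Of 24 axonemal dynein subunits 11 were lower and 13 did not pass, all 24 had a negative difference, and the median was -0.54. The inner arm heavy chain Dnah12 (-2.26 ± 0.09), the light intermediate chain Dnali1 (-1.59 ± 0.19), the heavy chain Dnah6 (-1.52 ± 0.24) and the intermediate chain Wdr63 (-1.37 ± 0.47) led them. The called gene Dynlrb2 (-1.07 ± 0.12) is counted here and again among the ependymal and multiciliated genes below. Of 6 genes of outer arm docking 4 were lower, namely Ccdc114 (-0.80 ± 0.08), Ttc25 (-0.76 ± 0.14), Efcab1 (-0.70 ± 0.11) and Armc4 (-0.67 ± 0.23). The authors' deposited table of 52 probe sets held 8 of these dynein subunits and 0 of the 10 assembly factor genes. It also held the docking gene Efcab1 and the chaperone gene Hspa8, which was not called here. The labels do not say how the authors chose the table.

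**Figure D3:**
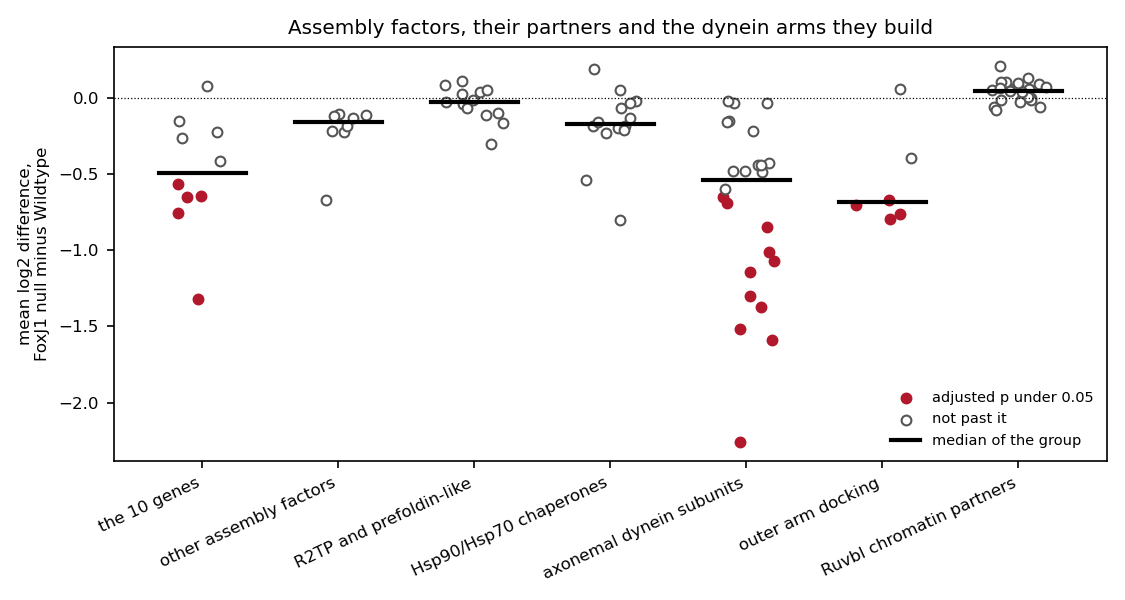
Mean log2 difference, FoxJ1 null minus Wildtype (vertical axis), of each gene in 7 groups (horizontal axis). Filled points had an adjusted p under 0.05, open points did not, and bars are group medians. Called genes occur among the 10 assembly factor genes (5), the axonemal dynein subunits (11) and the docking genes (4), and in 0 members of the other 4 groups.

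Some markers of ciliated cells and of a neighbouring epithelium were also lower in FoxJ1 null. Of 20 ependymal and multiciliated genes 10 were lower, led by Ak7 (-1.99), Rsph4a (-1.93), Tmem212 (-1.73) and Enkur (-1.71), and their mean log2 level was 7.00 to 7.17 on the FoxJ1 null arrays and 7.84 to 7.92 on the Wildtype arrays. Of 13 choroid plexus genes 4 were lower, with mean levels of 7.81 to 8.33 on the FoxJ1 null arrays and 8.67 to 8.83 on the Wildtype arrays. Motile cilia have been described on the choroid plexus too, and whether it bore them at these ages was not tested. The median differences of the choroid plexus genes were -0.91, -0.19 and -0.77 at days 1, 7 and 14, against -0.64, -0.43 and -0.43 for the 10 genes. Calml4 read -1.33 ± 0.50 and Ttr, which encodes transthyretin, -1.31 ± 0.19 (both called), while Sostdc1 read -1.25 (adjusted p = 0.253) and Kcnj13 -0.98 (adjusted p = 0.132). Of 13 microglia, 13 oligodendrocyte, 14 neuronal, 11 astrocyte and 23 proliferation genes none was called between the genotypes, but their values were not all near 0. The neuronal genes had mean log2 levels of 10.95 to 11.24 on the FoxJ1 null arrays and 11.19 to 11.29 on the Wildtype arrays. The samples were therefore not ependymal cells alone. Microglia genes had a positive difference in 12 of 13 (median 0.24), with a median of 0.69 at day 14, where their mean level was 9.24 on the FoxJ1 null array and 8.57 on the Wildtype array. Their slope differences were positive in 13 of 13, with a median of 0.86 over the 13 days, and 0 were called. Over all genes 8517 of 19938 slope differences were positive, with a median of -0.05. All 23 proliferation genes had a negative difference (median -0.18), and the medians were -0.20 for oligodendrocyte, -0.24 for neuronal and -0.26 for astrocyte genes. Log2 array levels have no zero, so absence of a marker could not be read from them. The part of these cells in the differences of the assembly factors was not tested.

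With age the 10 genes split, and 8 of them did not pass. Lrrc6 was higher at day 14 than at day 1 by 0.75 (SE 0.14, adjusted p = 0.0083), and 7.5% of all genes were called higher. Ruvbl2 fell by 0.48 (SE 0.12, adjusted p = 0.0299), where 6.29% of all genes were called lower. With 1 of 10 genes in each direction, these shares are close to those of all genes, and the median of the 10 genes was -0.03 against -0.01 over all genes.

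Lrrc6 differed between days 14 and 1 by 0.93 in FoxJ1 null and by 0.57 in Wildtype brains, and every later array was above the earlier one of its genotype. Its age call was lost with genotype left out of the model (adjusted p = 0.169). For Ruvbl2 the same difference was -0.44 in FoxJ1 null and -0.52 in Wildtype brains, again in 1 direction at each step. When both high-Xist arrays were dropped the Ruvbl2 value was -0.50 (adjusted p = 0.096).

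Among the genes that did not pass, Spag1 read 0.47 (SE 0.18, adjusted p = 0.134), made up of 0.76 in FoxJ1 null and 0.17 in Wildtype brains. It passed when both high-Xist arrays were dropped (0.68, adjusted p = 0.0418) and with Xist as a covariate (0.67, adjusted p = 0.0165). Dnaaf2 read -0.26 (SE 0.13, adjusted p = 0.22), with -0.35 in FoxJ1 null and -0.18 in Wildtype brains. Daw1, Dnaaf3, Pih1d2, Zmynd10, Dnaaf1 and Ruvbl1 had mean age differences between -0.14 and 0.09. For Daw1 the 95% interval was -0.32 to 0.42.

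Markers of proliferation and of other cell types changed with age. All 23 proliferation genes fell by day 14, with a median of -0.93 and with Top2a at -1.59, Kif11 at -1.59 and Mki67 at -1.58. Of 13 oligodendrocyte genes 12 rose (median 2.97, with the myelin gene Mag at 4.80), as did 8 of 11 astrocyte and 8 of 13 microglia genes, while 2 astrocyte genes and 6 of 14 neuronal genes fell and 3 neuronal genes rose. Among the 20 ependymal and multiciliated genes 0 were called (limma; the age comparison had 5419 genes at an unadjusted p under 0.05). Of R2TP and prefoldin-like partners 2 of 13 fell, Pih1d1 (-0.49) and Pdrg1 (-0.46), and of Ruvbl chromatin partners 3 of 24 fell and 1 rose. Of the axonemal dynein subunits 2 of 24 rose, the heavy chain Dnah11 (0.89, adjusted p = 0.00396) and the light chain Dnal1 (0.57, adjusted p = 0.0261). Over all genes 7.5% were called higher and 6.29% lower with age, so 2 of 24 is close to the share of all genes. The part of these cell changes in the values of Lrrc6 and Ruvbl2 was not tested.

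**Figure D4:**
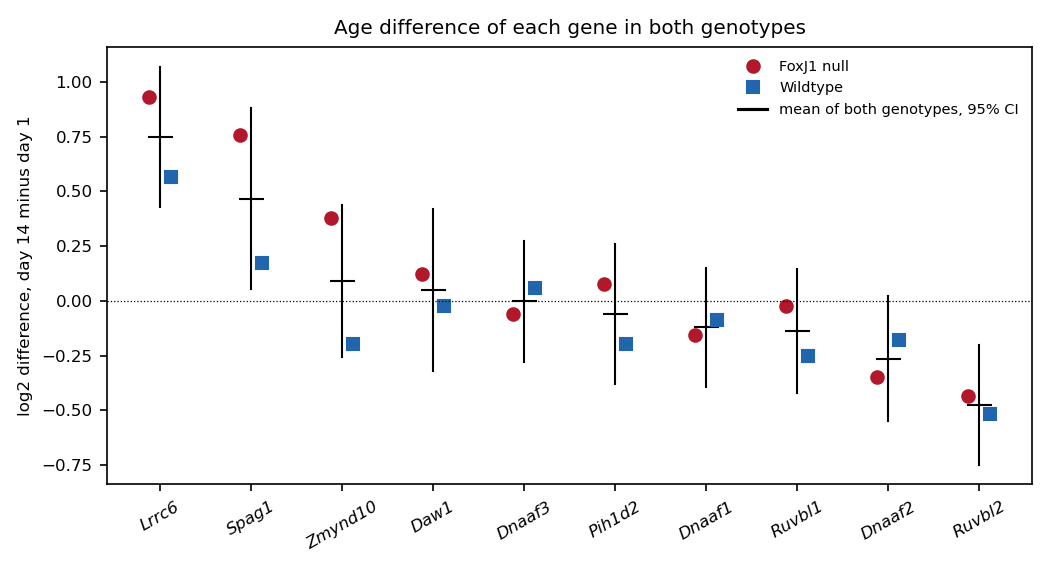
Log2 difference, day 14 minus day 1 (vertical axis), for each gene (horizontal axis), FoxJ1 null as circles and Wildtype as squares. Black bars are the limma mean of both genotypes with its 95% confidence interval. The intervals of Lrrc6, Spag1 and Ruvbl2 do not reach 0, and those of Lrrc6 and Ruvbl2 belong to calls after adjustment over all genes.

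Whether the age course itself differed between the genotypes was tested as a difference of slopes. By limma 0 of the 10 genes and 0.0% of all genes were called, with 596 genes and 0 of the 10 at an unadjusted p under 0.05. Over the 13 days the slope of FoxJ1 null minus that of Wildtype came to 0.58 for Zmynd10 (interval -0.12 to 1.27), 0.56 for Spag1 (-0.25 to 1.36) and 0.35 for Lrrc6 (-0.30 to 1.01). The other 7 genes lay between -0.16 and 0.26. All 10 intervals held 0, and their limits reached from -0.77 to 1.36, so equal courses are not shown.

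Genes whose levels ran most like those of single members were looked up for Daw1, Zmynd10 and Lrrc6, the members with a range of at least 1 log2 unit, among 1433 genes with such a range. Over the 6 arrays Daw1 ran closest to Cfap52 (Pearson r = 0.991), Vwa3a (0.988) and Kif6 (0.987). Zmynd10 ran closest to Spa17 (0.983), Cfap206 (0.983) and Musk (0.983). All 6 of these genes were called lower in FoxJ1 null. Lrrc6 ran closest to Hsph1, a large heat shock protein (0.991), Ift22 (0.985) and Ppil6 (0.982), of which Ppil6 was called lower (-0.99) while Hsph1 (-0.47, adjusted p = 0.272) and Ift22 (-0.40, adjusted p = 0.431) were not. The arrays share genotype and age, so these are descriptions without a test.

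The 5 genotype calls were not equally firm. Daw1 was called in 13 of 13 alternative settings that tested it (adjusted p from 2.1e-05 to 0.023). The settings overlap, so these counts are not counts of independent checks. Each of these genes has 1 single-gene probe set. The mean of probe sets and each probe set on its own therefore refit the same values, among a changed pool of other genes. Daw1 and Lrrc6 lie in the lowest tertile of level, so both filters on dim genes removed them and their calls were not tested there. With the tertile filter Zmynd10 was the 1 gene called of the 8 that remained. Zmynd10 and Pih1d2 were called in 9 of 14, Lrrc6 in 8 of 13 and Dnaaf3 in 6 of 14. A further quantile normalization between arrays left only Daw1 called. The same held for a model without age and for the 4 arrays with low Xist. The difference of each of the 5 genes stayed negative in all of its settings. A change of filter, of probe set summary, of the variance model or of the age term leaves that difference as it was. Its sign is no check in those settings. The difference could move only with renormalization, centring, the Xist covariate or arrays left out.

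**Figure D5:**
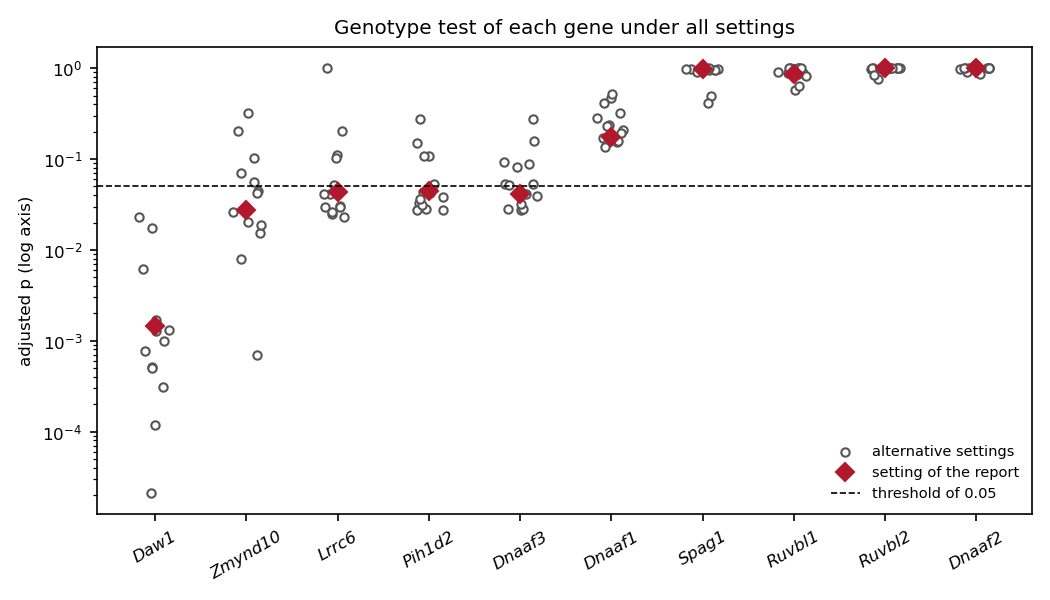
Adjusted p of the genotype test (vertical log axis) for each gene (horizontal axis). Diamonds are the setting reported here, open circles the 13 to 15 alternative settings of each gene, and the dashed line the threshold of 0.05. All circles of Daw1 lie below the line, those of Zmynd10, Lrrc6, Pih1d2 and Dnaaf3 on both sides, and those of the other 5 genes above it.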

How the data were processed

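The authors deposited log2 levels of 35557 probe sets on 6 arrays, made with RMA per the submitters' processing notes. Its software and version are not given in the sources used here. In a second table the authors deposited linear intensity values of 52 probe sets, whose log2 matched the first table within 4.86e-06.

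Probe sets with 1 gene symbol in the platform table (21789) were used, 1621 with several and 12147 with none were not. Entrez ids of 21698 were in the RefSeq table, which changed 0 symbols. The brightest probe set by mean stood for each of 19938 genes. Each of the 10 members had 1 single-gene probe set. Dim genes were kept.

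Fits used R 4.3.3 with limma 3.58.1 (lmFit, eBayes) over all genes, on genotype plus the 3 ages as levels (2 residual and 7.51 prior degrees of freedom). The slope test used genotype, day and their product. P-values are 2-sided and adjusted by Benjamini-Hochberg. All members are named, with up to 4 genes per list by the size of the genotype difference and up to 3 by that of the age difference among those called. Genes most like a member were the 3 with the highest Pearson r. Precision is limited by the 6 arrays. The code was tested on simulated data. Members and lists were chosen with earlier results of these data known. Figures were drawn with matplotlib 3.10.9 and tables made with pandas 2.3.3 and numpy 2.4.6 under Python 3.11.15.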

Additional observations from a re-analysis of the deposited data

How the results depend on the processing

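Of the 10 genes, 5 were called between the genotypes as reported. That count was 1 after a further quantile normalization, 1 without genes in the lowest tertile of level (8 of the 10 genes remaining), 0 without genes below the median (2 remaining), 1 without the 2 high-Xist arrays, 3 with Xist as a covariate, 1 with age left out, and 2 to 4 when 1 age was left out. Over all genes the 134 calls became 61, 16, 66 and 45 with the tertile filter, the median filter, with both high-Xist arrays dropped and with age left out, and 135 to 186 without 1 age. For the age comparison, the 2 called genes became 1 with either filter or with genotype left out. For the slopes, leaving out 1 array gave 0 to 9 genes over the whole array and 0 of the 10. The filters tested fewer genes. Leaving out 1 age, dropping the 2 high-Xist arrays and adding Xist as a covariate left fewer residual degrees of freedom than the 2 of the main fit. Beyond this, the cause of these changes was not tested.

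The values that changed sign were all uncalled. Age differences turned for Pih1d2 without the high-Xist arrays (0.11) and, with Xist as a covariate, for Pih1d2 (0.050) and Dnaaf3 (0.0070). With that covariate the slope difference of Daw1 was -0.19. When single arrays were left out, slope differences ran from -0.63 to 1.03 for Daw1, -0.0078 to 1.05 for Zmynd10, -0.075 to 0.88 for Lrrc6, -0.15 to 0.76 for Pih1d2, -0.24 to 1.53 for Spag1, -0.15 to 0.68 for Ruvbl1, -0.14 to 0.26 for Ruvbl2, -0.32 to 0.15 for Dnaaf1, -0.42 to 0.049 for Dnaaf2 and -0.25 to 0.035 for Dnaaf3. The slope fit without the 2 high-Xist arrays has no residual degree of freedom and was not run. Signal over background is not in the deposited values.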
